A study of Mus musculus with 21 samples.

Results

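The genes described here are the pattern recognition receptors Tlr1, Tlr2, Tlr3, Tlr4, Tlr6, Tlr7, Tlr9, Nod1 and Nod2 and the receptor partner Ly86, 10 of the 20018 named genes on the array. They are a list by name of Toll-like and NOD receptors with Ly86 added, and 5 other Toll-like receptors are described among the pathway genes. They were found through the RefSeq accession of each probe. The array carried 11 probes for them, 2 for Tlr7 and 1 for each of the others. Tlr7 is represented by the probe with the higher mean signal, and its other probe is given as a check.

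Toll-like receptors are membrane proteins that recognise conserved microbial molecules and signal through adaptors such as Myd88 to NF-kB and interferon regulatory factors. Tlr1, Tlr2, Tlr4 and Tlr6 act at the cell surface, where Tlr2 pairs with Tlr1 or Tlr6 to bind lipopeptides and Tlr4 binds lipopolysaccharide with Ly96 (MD-2). Tlr3, Tlr7 and Tlr9 sense double-stranded RNA, single-stranded RNA and CpG DNA in endosomes, and Ly86 (MD-1) is the secreted partner of Cd180 (RP105), a Toll-like protein of B cells. Nod1 and Nod2 are cytosolic receptors for fragments of bacterial peptidoglycan that signal through the kinase Ripk2.

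RNA was hybridised to 21 Agilent mouse arrays of 1 colour, 3 for each of 7 groups, in 3 experiments on the related transcription repressors Bach1 and Bach2. Common lymphoid progenitors (CLPs), which give rise to lymphocytes in the bone marrow, came from mice deficient in both Bach1 and Bach2 (DD) and from wild-type (WT) mice, pooled and sorted after part of the lineage-positive cells had been removed on beads. The other progenitors were WT multipotent progenitors (MPPs; lineage-negative, c-kit+, Sca-1+, Flt3mid), pooled from 4 mice per experiment, kept overnight in the cytokines SCF (50 ng/ml), IL-6 (10 ng/ml) and IL-3 (5 ng/ml) and infected with an MSCV retrovirus. By their labels, the B220+ cells carried a Bach2 vector with GFP, spent 24 h in multilineage culture and 6 days under B-lineage conditions, and were then sorted as GFP+ and B220+ (B220 is a CD45 form found on B-lineage cells). Bach2-vector MPPs carried the same vector and control-vector MPPs carried GFP alone; both were sorted for GFP after 2 days of multilineage culture. Follicular B cells of Bach2-knockout (Bach2KO) and WT mice were cultured for 24 h with an anti-IgM antibody fragment (10 ug/ml) that engages their antigen receptor. The sources used here do not give the ages of the mice, and no label names separate animals for the follicular B-cell arrays, so that p-values there may measure partly technical spread.

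Values are log2 signal relative to the 75th percentile of signal on the same array, so that 0 is the 75th percentile and each unit is a doubling. That percentile was 2857.6 to 5127.1 signal units on the CLP arrays, 2070.9 to 3377.3 on the MPP arrays and 97.3 to 357.5 on the arrays of follicular B cells, with Bach2KO replicate 2 the lowest. Differences are log2 values ± SE from limma with an adjusted p over all genes of the comparison, n = 3 arrays per group, and the threshold was an adjusted p under 0.05. Bach2 itself fell in Bach2KO follicular B cells (-3.76 ± 0.36, adjusted p = 9.19e-04). It differed by -2.11 ± 0.58 in DD CLPs and by 1.15 ± 0.60 in Bach2-vector MPPs without passing (adjusted p = 0.999 and 0.774). Bach1 differed by -0.52 ± 0.45 in DD CLPs, where its arrays overlapped those of WT CLPs (adjusted p = 0.999). Both genes had signal above background on all 3 DD arrays. In the B220+ cells, labelled as carrying the Bach2 vector, Bach2 was not above the controls, with a mean of -3.11 in B220+ cells and -2.99 in controls (-0.12 ± 0.60, adjusted p = 0.910), and 2.42-fold below Bach2-vector MPPs without passing (adjusted p = 0.230). Whether the probe lies in the sequence that the vector carries was not determined here, and a probe outside it would not check the label. Of 10 B-lineage genes, 7 were well above background on all 3 B220+ arrays and 8 on all 3 control-vector arrays, with summed levels of 18.9 to 29.5 times the 75th percentile in B220+ cells and 9.71 to 15.0 times in controls; 1 of the 9 tested, the B-cell adaptor Blnk, was higher in B220+ cells (7.34 ± 0.65, adjusted p = 2.99e-04). Of 8 follicular B-cell genes, 6 were so on all B220+ arrays and 7 on all control-vector arrays, and Ms4a1 (CD20) on none of either. Dntt (7.13 ± 0.25, adjusted p = 5.66e-06) and Il7r (4.99 ± 0.59, adjusted p = 0.00116), genes of early lymphoid progenitors, were higher in B220+ cells than in control-vector MPPs. These are bulk samples, in which fewer cells of a type and less RNA per cell cannot be told apart.

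Promoters of 8 of the 10 genes were found in a RefSeq table of sequences from 250 bases before to 50 bases after each annotated start site (GRCm38.p6), 11 promoters in all. They were searched on both strands for TGANTCA, the core to which Bach proteins and AP-1 bind, for GAAA-NN-GAAA (interferon-stimulated response), TTGCNNAA (C/EBP) and GAGGAAGT (PU.1). The Bach and AP-1 core was in 7.81% of all 32851 promoters of that length and in 1 of the 11, that of Tlr9, where TGACTCA began at position -58 from the start site. TTGCNNAA (10.8% of all promoters) was in promoters of Nod1, Tlr3 and Tlr6, GAGGAAGT (3.20%) in those of Tlr1 and Tlr9, and GAAA-NN-GAAA (3.44%), at 2 overlapping places, in that of Tlr6. A match is a description of the letters only. The promoters of Nod1 and Tlr1, the genes with the largest differences below, and of Tlr9 are shown 5′ to 3′ on the gene's strand, with the matches in capitals.
Nod1, chr6:54971612-54971911, minus strand: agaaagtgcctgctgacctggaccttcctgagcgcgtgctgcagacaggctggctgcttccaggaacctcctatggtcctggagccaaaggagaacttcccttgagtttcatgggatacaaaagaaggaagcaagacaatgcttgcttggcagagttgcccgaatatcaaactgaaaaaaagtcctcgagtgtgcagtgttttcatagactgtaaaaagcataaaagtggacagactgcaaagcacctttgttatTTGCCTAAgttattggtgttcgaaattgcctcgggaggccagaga
Nod1, chr6:54972563-54972862, minus strand: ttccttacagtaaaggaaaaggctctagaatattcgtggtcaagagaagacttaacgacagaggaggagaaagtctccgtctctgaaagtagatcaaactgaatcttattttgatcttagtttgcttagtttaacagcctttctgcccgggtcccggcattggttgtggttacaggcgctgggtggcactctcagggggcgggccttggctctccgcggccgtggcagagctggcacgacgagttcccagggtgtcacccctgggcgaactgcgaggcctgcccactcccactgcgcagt
Tlr1, chr5:64932650-64932949, minus strand: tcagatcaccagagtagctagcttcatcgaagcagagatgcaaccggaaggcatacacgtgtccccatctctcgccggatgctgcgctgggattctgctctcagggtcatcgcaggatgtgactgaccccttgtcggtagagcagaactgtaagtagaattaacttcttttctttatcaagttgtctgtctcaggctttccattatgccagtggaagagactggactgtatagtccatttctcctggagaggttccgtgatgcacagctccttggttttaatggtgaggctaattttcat
Tlr1, chr5:64933509-64933808, minus strand: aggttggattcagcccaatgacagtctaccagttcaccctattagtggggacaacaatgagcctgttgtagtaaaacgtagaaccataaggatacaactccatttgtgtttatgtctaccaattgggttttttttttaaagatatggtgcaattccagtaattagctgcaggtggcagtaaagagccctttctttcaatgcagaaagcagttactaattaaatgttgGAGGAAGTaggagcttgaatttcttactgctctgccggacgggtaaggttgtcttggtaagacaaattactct
Tlr9, chr9:106222348-106222647, plus strand: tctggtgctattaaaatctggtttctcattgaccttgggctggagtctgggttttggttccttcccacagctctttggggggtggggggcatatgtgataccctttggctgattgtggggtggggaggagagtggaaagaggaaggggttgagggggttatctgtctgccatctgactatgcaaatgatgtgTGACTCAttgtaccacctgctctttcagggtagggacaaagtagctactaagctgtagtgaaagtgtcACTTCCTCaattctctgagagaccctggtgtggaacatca
Both Nod1 promoters and both Tlr1 promoters hold no TGANTCA; the capitals mark TTGCCTAA in the first Nod1 promoter, GAGGAAGT in the second Tlr1 promoter, and in Tlr9 TGACTCA and, reading on the other strand, GAGGAAGT as ACTTCCTC.

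Of the 10 genes, 8 (Tlr1, Tlr2, Tlr4, Tlr6, Ly86, Tlr7, Tlr9 and Nod1) were well above background on all 21 arrays. Nod2 was so on 15, which were all the CLP and MPP arrays, and on none of the 6 follicular B-cell arrays. Tlr3 was well above background on 2 arrays, DD CLP replicates 1 (-7.17) and 3 (-4.70), and was tested in no comparison. Groups of different experiments came from separate amplifications and slides, and their levels are set side by side without a test.

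**Figure D1:**
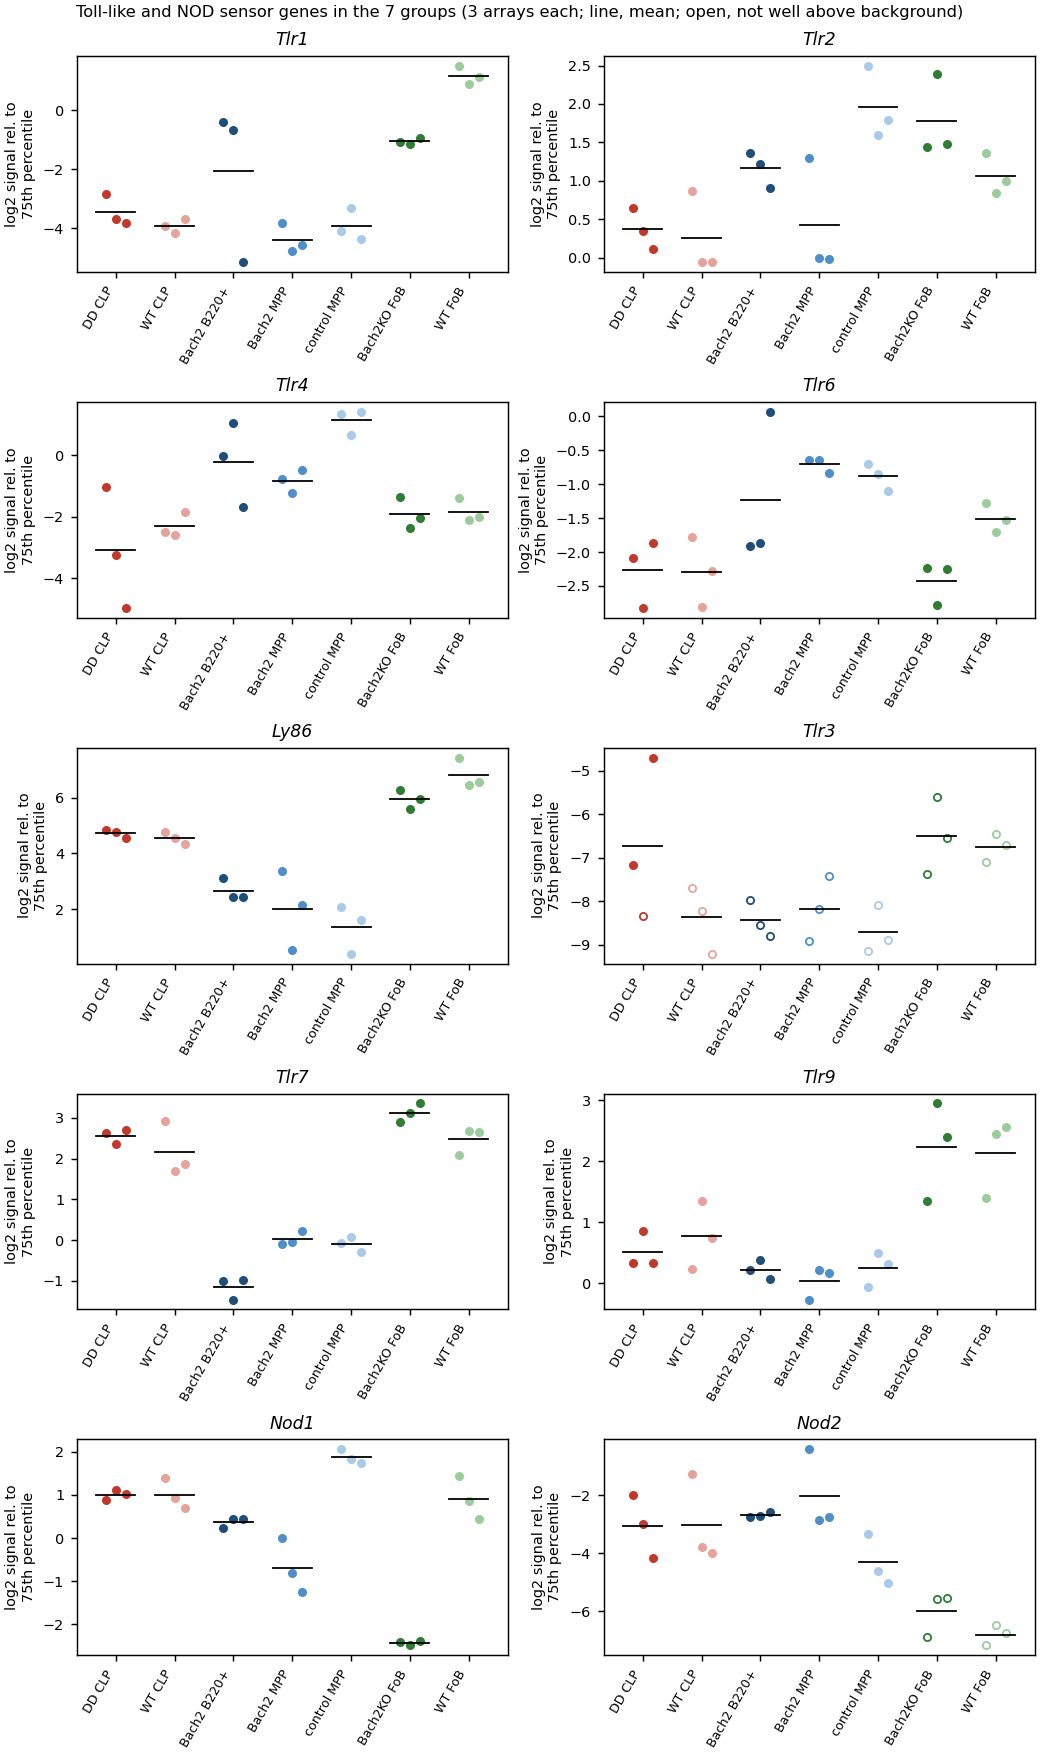
Log2 signal above or below that array's 75th percentile (vertical axis, a separate scale for each gene) for the 10 genes in the 7 groups; each circle is an array, the line is the mean of 3 and open circles were not well above background. Nod1 is lowest in Bach2KO follicular B cells, between -2.48 and -2.38, and Tlr1 on B220+ replicate 3 lies at -5.16, apart from -0.41 and -0.67 on the other 2 arrays.

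Comparisons were made within each experiment, and the 3 comparisons among MPP-derived groups share arrays and 1 estimate of spread. In Bach2-vector against control-vector MPPs 1 of the 9 genes tested passed, Nod1, which was lower, against 1.80% of all 16988 genes (0.724% lower). In B220+ cells against control-vector MPPs 2 of 9 passed, Nod1 and Tlr7, both lower, where 12.1% of all 16989 genes passed (7.45% lower), and against Bach2-vector MPPs 1 of 9 did, Tlr7, also lower, where 6.17% of 16988 genes passed (4.16% lower). In Bach2KO against WT follicular B cells 2 of 8 passed, Nod1 and Tlr1, both lower, against 2.71% of all 13068 genes (0.513% lower). In DD against WT CLPs none of 9 passed (0 at an unadjusted p under 0.05 as well, against 3.76% of all genes), where 1 of 16456 genes, 0.00608%, did.

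The groups' arrays did not overlap for 4 of 9 genes between vectors (Nod1, Nod2, Tlr2 and Tlr4), where 15.0% of all genes did not overlap. They did not overlap for 5 of 9 between B220+ cells and control-vector MPPs (Ly86, Nod1, Nod2, Tlr2 and Tlr7; 34.5% of all genes), and for 2 of 9 between B220+ cells and Bach2-vector MPPs (Nod1 and Tlr7; 29.2%). In follicular B cells this held for 6 of 8 (Ly86, Nod1, Tlr1, Tlr2, Tlr6 and Tlr7; 18.7%), and in CLPs for 0 of 9 (7.91%). The median difference of the genes tested was -0.22 between vectors (all genes -0.02), -0.35 in B220+ cells against control-vector MPPs (all genes -0.29), 0.62 against Bach2-vector MPPs (all genes -0.25), -0.47 in follicular B cells (all genes -0.16) and 0.03 in CLPs (all genes 0.04).

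**Figure D2:**
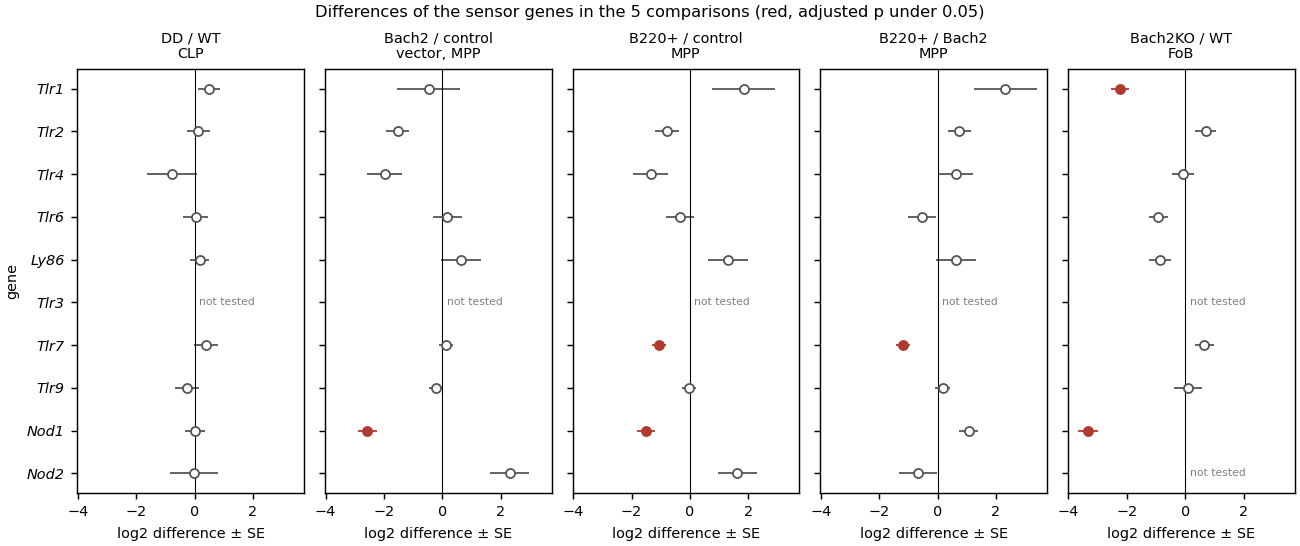
Log2 difference ± SE (horizontal axis; first-named group minus the second) of each gene in the 5 comparisons; red circles passed at an adjusted p under 0.05, open circles did not. Nod1 lies at -2.57 between vectors and at -3.33 in follicular B cells, and no gene passes in CLPs.

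Nod1, the receptor for peptidoglycan fragments that carry meso-diaminopimelic acid, fell in 3 of the 5 comparisons. Those against control-vector MPPs share the control arrays. B220+ cells also differed from control-vector MPPs in culture and sorting, which cannot be told apart from the vector. Nod1 stood at -2.40, -2.48 and -2.38 in Bach2KO follicular B cells, against 1.45, 0.86 and 0.43 in WT cells. Every Bach2KO array lay far below every WT array, and the difference was -3.33 ± 0.34 (limma, adjusted p = 0.00105), 10.1-fold lower. It was -3.85 within slide 1 and -3.07 within slide 2. Over 16 alternatives it ran from -3.57 to -2.02 and passed in all, so that its size depends on the processing. The Bach2KO arrays had dim signals of 67.6, 17.4 and 38.7 units for Nod1, though well above background. In the MPP experiment Nod1 stood at 0.24, 0.43 and 0.43 in B220+ cells, at -0.00, -0.82 and -1.26 in Bach2-vector MPPs, and at 2.06, 1.83 and 1.74 in control-vector MPPs. The 3 groups did not overlap, with the Bach2-vector MPPs lowest and the B220+ cells between them and the controls. The difference was -2.57 ± 0.32 between vectors (adjusted p = 0.00601, 5.94-fold lower) and -1.51 ± 0.32 in B220+ cells against controls (adjusted p = 0.0168, 2.85-fold lower); that of B220+ cells against Bach2-vector MPPs, 1.06 ± 0.32, did not pass (adjusted p = 0.0911). The call of B220+ cells against controls was lost without control-vector replicate 2 (adjusted p = 0.0611) or B220+ replicate 1 (0.0593), and that against Bach2-vector MPPs was gained without Bach2-vector replicate 1 (1.41, adjusted p = 0.0243). Bach2-vector replicate 1 was the only array of its group on slide 1, where all B220+ arrays were. Within slide 1 Nod1 in B220+ cells differed by 0.37 from Bach2-vector and by -1.69 from control-vector MPPs. Over 16 alternatives the difference of B220+ cells from Bach2-vector MPPs ran from 0.63 to 1.41 and passed in 1. Within slides 1 and 2 the vector difference was -2.06 and -2.83.

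Nod1 was lower than in the matching control both in MPPs labelled as carrying a Bach2 vector and in B cells labelled as Bach2 knockouts. DD CLPs, labelled as deficient in Bach2 together with Bach1, had 0.88, 1.11 and 1.03, against 1.39, 0.92 and 0.71 in WT CLPs. These overlapped, with a difference of -0.00 ± 0.34 and a 95% confidence interval of -0.78 to 0.78. By group mean Nod1 was highest in control-vector MPPs (1.88 ± 0.16, SD, n = 3) and lowest in Bach2KO follicular B cells (-2.42 ± 0.06), with Bach2-vector MPPs next to lowest (-0.69 ± 0.64), and none of these 3 overlapped its neighbour. The means of DD and WT CLPs, WT follicular B cells and B220+ cells lay between 0.37 and 1.01, and neighbours in that range overlapped.

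Nod2, the receptor for muramyl dipeptide, passed in none of the comparisons in which it was tested. Bach2-vector MPPs had -0.42, -2.87 and -2.76, against -3.33, -4.61 and -5.03 in control-vector MPPs. The groups did not overlap, but replicate 1 lay higher than the other 2 arrays in both, and the difference was 2.31 ± 0.66 (adjusted p = 0.178). With the replicate number as a block the adjusted p was 0.0838, and with the slide as a block it was 0.00446; within slides 1 and 2 the difference was 2.91 and 2.00. B220+ cells had -2.76, -2.73 and -2.60, above all 3 control arrays (1.63 ± 0.66, adjusted p = 0.139). Within slide 1, which held all B220+ arrays and 1 control array, this difference was 0.64. Over 16 alternatives it ran from 0.33 to 2.12 and passed in 0. Against Bach2-vector MPPs the difference was -0.68 ± 0.66 (adjusted p = 0.545), and -1.97 with the slide as a block (adjusted p = 0.0147). That blocked value depends on replicate 1 of the other groups, their only arrays on slide 1, where all B220+ arrays were. CLPs gave -2.01, -2.99 and -4.17 for DD and -1.27, -3.81 and -4.01 for WT, a wide and overlapping spread.

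Of the surface receptors, Tlr1, which recognises triacylated lipopeptides together with Tlr2, fell in Bach2KO follicular B cells. It stood at -1.08, -1.15 and -0.94 there, against 1.51, 0.89 and 1.13 in WT cells. The groups were well apart, with a difference of -2.23 ± 0.30 (adjusted p = 0.00568), 4.70-fold lower, and -2.59 and -2.05 within slides 1 and 2. In 1 fit over all 21 arrays the adjusted p was 0.164. Tlr1 was highest in WT follicular B cells and next in Bach2KO cells; DD CLPs (-3.45 ± 0.52), WT CLPs (-3.93 ± 0.23), Bach2-vector MPPs (-4.39 ± 0.51) and control-vector MPPs (-3.92 ± 0.54; SD, n = 3 each) overlapped at low levels.

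In B220+ cells Tlr1 split by array, with -0.41 and -0.67 on replicates 1 and 2 and -5.16 on replicate 3. The difference from control-vector MPPs was 1.85 ± 1.08 with all arrays (adjusted p = 0.276) and 3.39 ± 0.40 without replicate 3 (adjusted p = 0.00146). Against Bach2-vector MPPs it was 2.31 ± 1.08 (adjusted p = 0.226), and 3.85 ± 0.40 without that array (adjusted p = 0.00132). Replicate 3 stood apart in Tlr6 too, at 0.07 against -1.92 and -1.86, and without it Tlr6 differed by -1.01 ± 0.23 from control-vector MPPs (adjusted p = 0.0223) and by -1.18 ± 0.23 from Bach2-vector MPPs (adjusted p = 0.0172). With all 3 arrays these were -0.35 ± 0.48 and -0.53 ± 0.48 (adjusted p = 0.649 and 0.519), so that whether either gene differed in B220+ cells depends on 1 array.

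Tlr6, which forms the other heterodimer with Tlr2 and binds diacylated lipopeptides, was lower on every Bach2KO than on every WT follicular B-cell array. Values were -2.23, -2.78 and -2.25 in Bach2KO cells and -1.28, -1.71 and -1.53 in WT cells, a difference of -0.92 ± 0.31 that did not pass (adjusted p = 0.258). Same-numbered arrays deviated together here, and with the replicate number as a block the adjusted p was 0.00453. Over 16 alternatives the difference ran from -1.03 to -0.35, with an adjusted p of up to 0.948, and it passed in 2. Between vectors Tlr6 differed little, at -0.65, -0.65 and -0.83 in Bach2-vector MPPs and -0.70, -0.85 and -1.10 in control-vector MPPs (0.17 ± 0.48, 95% confidence interval -0.92 to 1.27).

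Tlr2, the shared partner of both, had 1.29, -0.01 and -0.01 in Bach2-vector MPPs, against 2.50, 1.59 and 1.79 in control-vector MPPs. All Bach2-vector arrays were lower, and replicate 1 was the highest of its group in both. The difference of -1.54 ± 0.40 did not pass (adjusted p = 0.134), but did with the replicate number as a block (adjusted p = 0.0481), with the slide as a block (0.0129), and without Bach2-vector replicate 1 (-1.97, adjusted p = 0.0361). B220+ cells, at 1.36, 1.22 and 0.91, lay below the controls as well (-0.79 ± 0.40, adjusted p = 0.218), by a difference of -1.50 with the slide as a block (adjusted p = 0.0132). This blocked value too depends on replicate 1 of the other groups, their only arrays on the slide of the B220+ cells. In follicular B cells Tlr2 was 1.44, 2.39 and 1.48 for Bach2KO and 1.37, 0.83 and 1.00 for WT, higher on each Bach2KO array by a difference that did not pass (0.70 ± 0.36, adjusted p = 0.559).

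Tlr4, the lipopolysaccharide receptor, passed in no comparison. Bach2-vector MPPs had -0.79, -1.24 and -0.48, against 1.34, 0.65 and 1.41 in control-vector MPPs, without overlap. The difference was -1.97 ± 0.60 (adjusted p = 0.224), and -2.13 and -1.89 within slides 1 and 2. B220+ cells scattered over -0.04, 1.06 and -1.67. In follicular B cells the groups overlapped at -1.35, -2.35 and -2.04 for Bach2KO and -1.40, -2.10 and -2.00 for WT, and a difference beyond -0.92 or 0.76 lay outside the 95% confidence interval.

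Ly86 passed in no comparison, and its levels were set apart by experiment. Its means were 5.95 ± 0.35 in Bach2KO and 6.81 ± 0.54 in WT follicular B cells, 4.72 ± 0.14 in DD and 4.56 ± 0.20 in WT CLPs, and 2.67 ± 0.38, 2.02 ± 1.42 and 1.37 ± 0.86 in B220+ cells, Bach2-vector MPPs and control-vector MPPs (SD, n = 3 each). The 2 CLP groups overlapped each other, as did neighbours among the 3 MPP-derived groups, and the 3 experiments did not overlap. Within follicular B cells every Bach2KO array (6.28, 5.59 and 5.96) lay below every WT array (7.43, 6.45 and 6.54). The difference of -0.86 ± 0.37 did not pass (adjusted p = 0.444), and had an adjusted p of 0.00821 with the replicate number as a block. B220+ cells, at 3.11, 2.46 and 2.44, were above the controls, at 2.09, 0.41 and 1.61 (1.30 ± 0.68, adjusted p = 0.232). Within slide 1, which held all B220+ arrays and 1 control array, this difference was 0.58. Over 16 alternatives it ran from 0.26 to 1.66.

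Of the endosomal receptors, Tlr7 was lower in B220+ cells than in both other MPP-derived groups by its brighter probe. It had -1.02, -1.46 and -0.98 in B220+ cells, against -0.09, -0.06 and 0.22 in Bach2-vector MPPs and -0.06, 0.07 and -0.29 in control-vector MPPs. The B220+ arrays lay below all 6 others, by -1.18 ± 0.24 against Bach2-vector MPPs (adjusted p = 0.0235, 2.26-fold lower) and -1.06 ± 0.24 against control-vector MPPs (adjusted p = 0.0226, 2.08-fold lower). Leaving out either B220+ replicate 1 or 2 ended both calls (adjusted p = 0.0596 and 0.0806 against Bach2-vector and 0.0513 and 0.0746 against control-vector MPPs), as did Bach2-vector replicate 2 (0.0727) or 3 (0.0884) in the first and control-vector replicate 2 (0.103) in the second. The dimmer probe did not show this: its values were -3.37, -2.24 and -2.75 in B220+ cells, -2.98, -2.99 and -3.31 in Bach2-vector MPPs and -2.67, -2.97 and -1.88 in control-vector MPPs. By that probe the differences were 0.30 ± 0.37 against Bach2-vector MPPs (adjusted p = 0.637) and -0.28 ± 0.37 against control-vector MPPs (adjusted p = 0.632), so the 2 probes of Tlr7 disagree here. All 3 B220+ arrays were on slide 1, and with the slide as a block the adjusted p of the brighter probe was 0.0619 and 0.0586.

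In follicular B cells Tlr7 was higher on every Bach2KO array, at 2.91, 3.13 and 3.36 against 2.09, 2.68 and 2.65 in WT cells, by 0.66 ± 0.32 (adjusted p = 0.524, and 0.0299 with the replicate number as a block). The dimmer probe gave 2.67, 1.26 and 2.33 in Bach2KO cells and 1.02, 0.76 and 0.50 in WT cells, 1.33 ± 0.41 higher (adjusted p = 0.185). Here both probes of Tlr7 went the same way.

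Tlr9, the receptor for CpG DNA whose promoter holds the TGACTCA shown above, differed by no more than 0.27 in any of the 5 comparisons. It had 1.36, 2.95 and 2.40 in Bach2KO and 1.39, 2.45 and 2.55 in WT follicular B cells, where replicate 1 was lowest in both (0.10 ± 0.49, 95% confidence interval -1.01 to 1.20). Bach2-vector MPPs had -0.27, 0.22 and 0.17 and control-vector MPPs -0.06, 0.50 and 0.32 (-0.22 ± 0.25, 95% confidence interval -0.79 to 0.36). B220+ cells, at 0.22, 0.38 and 0.06, overlapped both. DD CLPs had 0.33, 0.86 and 0.33 and WT CLPs 0.23, 1.34 and 0.75 (-0.27 ± 0.40).

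In CLPs the differences of the 9 genes tested ran from -0.77 ± 0.86 for Tlr4 to 0.48 ± 0.38 for Tlr1, and the lowest adjusted p was 0.999. Tlr4 was the most scattered, at -1.04, -3.25 and -4.96 in DD and -2.49, -2.59 and -1.85 in WT CLPs, and its difference was 1.45, -0.66 and -3.11 within the 3 slides. The 95% confidence interval of the difference was -2.73 to 1.19 for Tlr4 and -1.87 to 1.82 for Nod2, but -0.57 to 0.90 for Ly86 and -0.78 to 0.78 for Nod1, so that the limits on a change differ between the genes.

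The other genes of the same pathways were described from 9 lists of 85 genes, of which 84 had a probe. Between vectors 4 of 82 tested were higher and 1 lower (all genes, 1.07% higher). In B220+ cells 11 of 82 were higher and 8 lower than in control-vector MPPs (all genes, 4.65% higher), and 4 were higher and 7 lower than in Bach2-vector MPPs (2.01% higher). In Bach2KO follicular B cells 3 of 73 were higher and 1 lower (2.20% higher), and in DD CLPs 0 of 81 passed. The shares of all genes that were lower are given above. The medians of these genes were 0.15, -0.02, -0.14, -0.05 and 0.02, beside the all-gene medians given above. Without 1 array at a time the number passing was 1 to 3 between vectors (lowest without Bach2-vector replicate 3), 8 to 20 for B220+ cells relative to control-vector MPPs (lowest without control-vector replicate 2), 4 to 14 relative to Bach2-vector MPPs (lowest without Bach2-vector replicate 3 or B220+ replicate 2), and 2 to 5 in follicular B cells (lowest without WT replicate 2 or 3 or Bach2KO replicate 3).

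Of 9 accessory proteins, 2 were lower and 2 higher in B220+ cells than in control-vector MPPs, where 12.1% of all genes passed. Against Bach2-vector MPPs 2 were lower and 1 higher there (6.17% of all genes passed). In Bach2KO follicular B cells 1 of 7 tested was higher (2.71% of all genes passed), and none passed between vectors or in CLPs. Ly96, the lipopolysaccharide-binding partner of Tlr4, had -1.89, -2.04 and -1.75 in B220+ cells, -0.63, -0.72 and -0.81 in Bach2-vector MPPs and 1.00, 0.50 and 0.09 in control-vector MPPs. B220+ cells were lower than both (-1.18 ± 0.27, adjusted p = 0.0378, and -2.43 ± 0.27, adjusted p = 8.33e-04), and the difference between vectors, -1.25 ± 0.27, did not pass (adjusted p = 0.0610). The first of these calls was lost without any 1 Bach2-vector array and without B220+ replicate 1 or 2 (adjusted p = 0.0750 to 0.117). In Bach2KO follicular B cells Ly96 had 1.63, 0.37 and 1.02 against -0.35, -1.67 and -0.93 in WT cells (1.99 ± 0.45, adjusted p = 0.0595, and 3.27e-06 with the replicate number as a block), and it was higher on every DD than on every WT CLP array (1.88 ± 0.35, adjusted p = 0.482). Cd180, the surface partner of Ly86, was 11.8-fold lower in B220+ cells than in control-vector MPPs (-3.56 ± 0.58, adjusted p = 0.00508), with signal above background on 2 of the 3 B220+ arrays. Cd36, a scavenger receptor that can hand ligands to Tlr2 and Tlr6, rose in Bach2KO follicular B cells, to 0.89, 0.89 and 1.01 against -3.13, -3.39 and -3.23 in WT cells (4.17 ± 0.28, adjusted p = 1.97e-04). Legumain (Lgmn), an endosomal protease that can process Tlr9, was higher in B220+ cells than in control-vector MPPs (3.52 ± 0.57, adjusted p = 0.00492), as was the integrin chain Itgb2 (1.07 ± 0.22, adjusted p = 0.0148). Cd14, the lipopolysaccharide co-receptor, differed by -1.61 ± 0.44 between vectors (adjusted p = 0.149) and by 1.57 ± 0.37 in follicular B cells (adjusted p = 0.0705, and 6.46e-05 with the replicate number as a block).

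Among 7 adaptors and 14 kinases and ligases tested, 6 genes passed in B220+ cells against control-vector MPPs, where 12.1% of all genes did. Against Bach2-vector MPPs 3 passed (Ticam2, Myd88 and Irak4), where 6.17% of all genes did. None of these lists passed between vectors, in follicular B cells or in CLPs. Against control-vector MPPs, Ticam2, an adaptor of Tlr4, was higher in B220+ cells (2.14 ± 0.27, adjusted p = 0.00152). The adaptors Myd88 (-0.92 ± 0.25, adjusted p = 0.0440) and Tirap (-1.41 ± 0.39, adjusted p = 0.0483) and the kinases and ligases Irak4 (-1.74 ± 0.32), Ikbke (-1.72 ± 0.35) and Traf3 (-0.92 ± 0.22) were lower. Over 16 alternatives Ticam2 and Irak4 passed in all, Ikbke in 13, Traf3 in 11, Tirap in 7 and Myd88 in 6. With the slide as a block Ikbke, Tirap and Myd88 did not pass (adjusted p = 0.0651, 0.117 and 0.0883). Ripk2, through which Nod1 and Nod2 signal, passed in none of the 5 comparisons.

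Of the downstream transcription factors Irf4 was 7.46-fold higher in Bach2-vector than in control-vector MPPs (2.90 ± 0.44, adjusted p = 0.0143) and 3.01-fold higher in B220+ cells (adjusted p = 0.0491). The call in B220+ cells held in 9 of 16 alternatives and not with the slide as a block (adjusted p = 0.142). Irf8 was higher in B220+ cells than in controls (1.76 ± 0.29) and passed in all 16; Irf7 was higher too (2.29 ± 0.54) but passed in 11, and was lost in 1 fit over 21 arrays (adjusted p = 0.134) and without replicate 1 or 2 of either group (0.0525 to 0.0987). Irf7 rose in Bach2KO follicular B cells (1.78 ± 0.30, adjusted p = 0.0156), where 2 of the 3 WT arrays were above background; this call was lost without WT replicate 2 or 3 or Bach2KO replicate 3 (adjusted p = 0.0657 to 0.111). With normexp on the median signal the difference of Irf7 was 0.71 (adjusted p = 0.534), and with quantile normalization 1.62 (adjusted p = 0.0644). Among the other receptors, Tlr12, which recognises protozoan profilin, was higher in Bach2-vector MPPs (2.50 ± 0.39, adjusted p = 0.0146) and B220+ cells (2.04 ± 0.39, adjusted p = 0.0100) than in controls. The nucleic acid sensors Zbp1 (3.27 ± 0.40, adjusted p = 0.00541) and Ifih1 (1.79 ± 0.28, adjusted p = 0.0149) were higher in Bach2-vector MPPs, and Nlrc5, a NOD-like regulator of MHC class I genes, was lower (-1.33 ± 0.27, adjusted p = 0.0472, and 0.0570 with the replicate number as a block); with the mean of all its probes it was -0.75 (adjusted p = 0.313). Ifih1 also rose in Bach2KO follicular B cells, to 2.55, 2.30 and 2.82 against 0.03, -0.21 and 0.13 in WT cells (5.95-fold, adjusted p = 0.00238). Of the 5 genes that passed between vectors, Zbp1 did so in all 16 alternatives, Tlr12 in 14, Irf4 and Ifih1 in 12 each and Nlrc5 in 7. In follicular B cells Cd36 and Ifih1 passed in all 16, Irf7 in 8 of 15 and Pglyrp2 in 6 of 12.

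The peptidoglycan recognition list held 1 gene that passed, Pglyrp2, an amidase that cleaves peptidoglycan, which was at least 1.49-fold lower in Bach2KO than in WT follicular B cells (adjusted p = 0.0199) and was not well above background on any Bach2KO array. With normexp on the median signal its difference was -0.14 (adjusted p = 0.985). With the replicate number as a block 19 of the 73 pathway genes passed in follicular B cells, 11 higher and 8 lower, in place of 4. Of all genes 2976 passed there with that block, in place of 354.

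**Figure D3:**
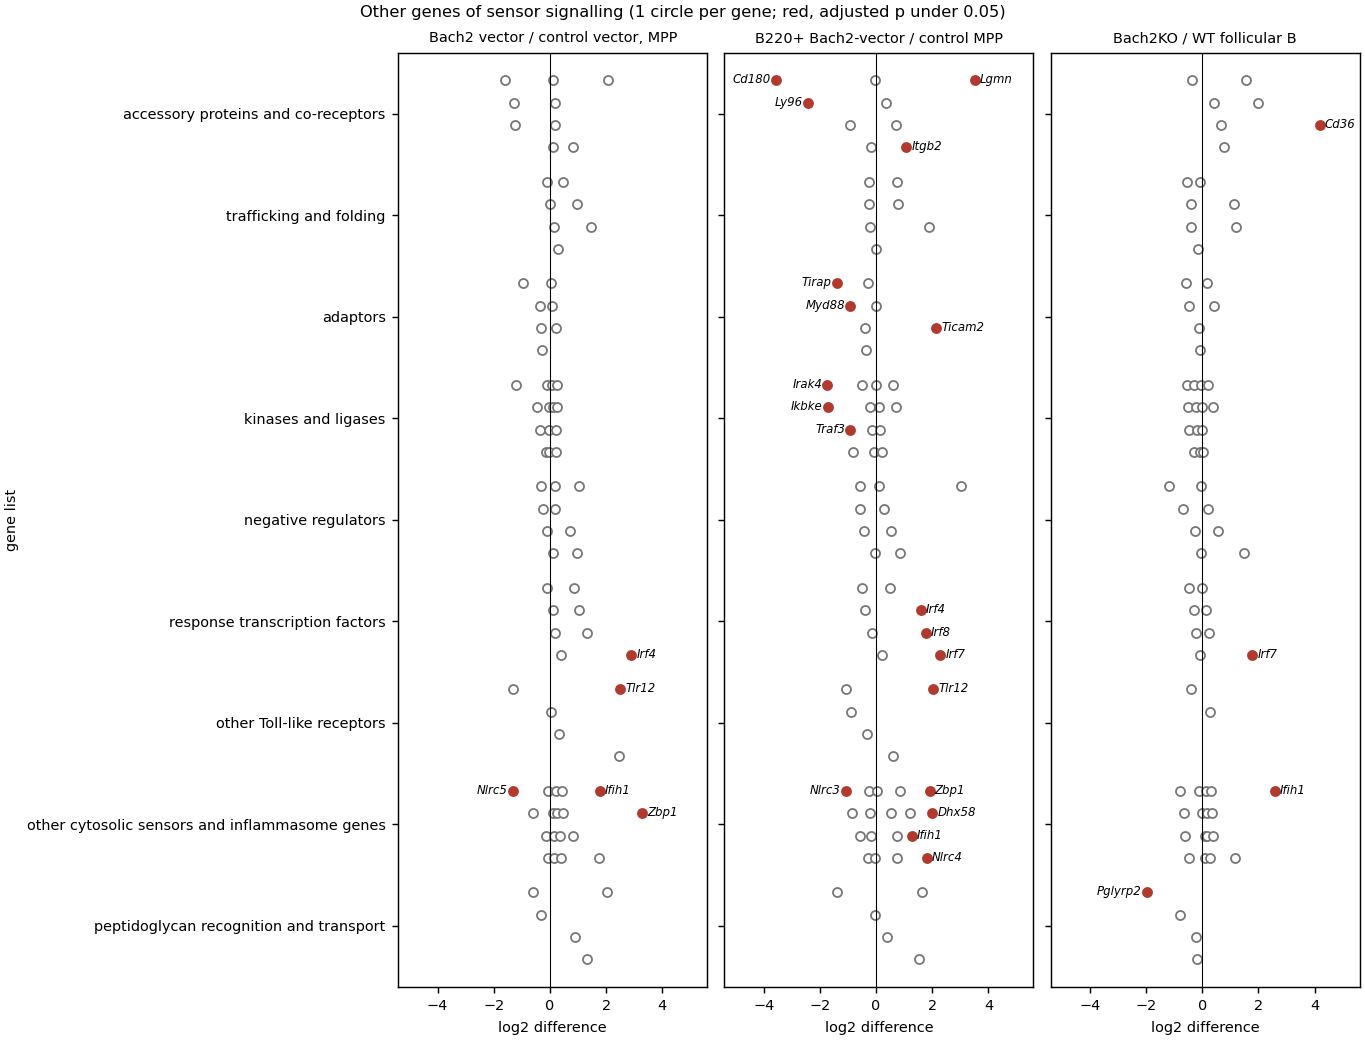
Log2 difference (horizontal axis; first-named group minus the second) of each tested gene of the 9 pathway lists in 3 of the comparisons; each circle is a gene, placed at different heights within its list only to keep circles apart, and red circles with names passed at an adjusted p under 0.05. B220+ cells hold 19 of the passing genes, Bach2-vector MPPs 5 and Bach2KO follicular B cells 4; the value of Pglyrp2 rests on signal near background in Bach2KO cells.

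Among 14694 genes above background on at least 11 arrays, the pattern most like that of Nod1 over the 21 arrays was that of Dtx4, an E3 ubiquitin ligase of the Deltex family (Pearson r = 0.928), followed at some distance by Tnfsf14 (0.770). The points share experiments, slides and amplification, so r is a description. Dtx4 had 0.79, 1.03 and 1.09 in Bach2KO follicular B cells, against 3.47, 2.95 and 2.93 in WT cells (-2.15 ± 0.31, adjusted p = 0.00649, 4.43-fold lower). In Bach2-vector MPPs it had 3.41, 2.74 and 2.80, against 4.17, 4.05 and 3.90 in control-vector MPPs (-1.05 ± 0.27, adjusted p = 0.124). The adjusted p in follicular B cells was 0.0536 without Bach2KO replicate 3. Like Nod1 it was lowest in Bach2KO follicular B cells, and lower in Bach2-vector than in control-vector MPPs on every array. Over the 9 MPP arrays Gda, a guanine deaminase, was most like both Nod1 (r = 0.977) and Tlr2 (r = 0.974), and it passed between vectors (-2.80 ± 0.48, adjusted p = 0.0215).

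**Figure D4:**
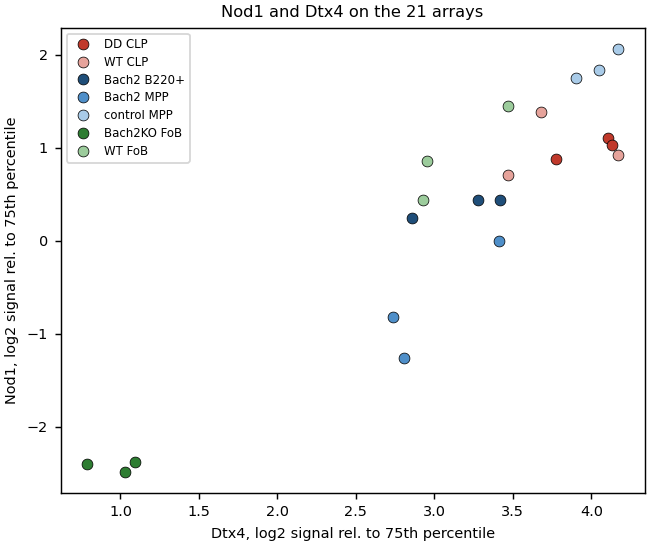
Nod1 (vertical axis) against Dtx4 (horizontal axis), both as log2 signal relative to the 75th percentile, on the 21 arrays coloured by group. The 3 Bach2KO follicular B-cell arrays sit alone at the lower left and the 3 control-vector MPP arrays at the upper right.

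The genes most like the others over the 21 arrays were Tgm3 for Tlr9 (r = 0.987), Tnfaip3 for Ly86 (0.956), Cd5 for Tlr7 (0.950), Id2 for Nod2 (0.933), Csf2rb for Tlr6 (0.921), Pfkfb1 for Tlr4 (0.900), Sptbn4 for Tlr1 (0.892) and Fcgr2b for Tlr2 (0.817). The points share experiments and slides here too. Tnfaip3 (A20) is a deubiquitinase that restrains Toll-like and NOD receptor signalling.

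Myeloid cells express most of these receptors, and 12 lists of markers of these and other cells were set beside them, as counts and as summed levels in multiples of the 75th percentile. Between vectors 0 of 9 tested monocyte and macrophage genes passed (median -0.41), with sums of 85.0 to 96.7 in Bach2-vector and 59.3 to 90.8 in control-vector MPPs, and Mertk was not above background on any Bach2-vector array. Of 9 granulocyte genes Mmp8, a collagenase of neutrophils, was lower (-6.09 ± 0.61, adjusted p = 0.00241), with sums of 237 to 282 in Bach2-vector and 314 to 332 in control-vector MPPs. Of 8 conventional dendritic-cell genes the chemokine receptor Ccr7 was higher (3.59 ± 0.40, adjusted p = 0.00352), with sums of 22.3 to 36.9 in Bach2-vector and 7.61 to 14.0 in control-vector MPPs. Of 5 NK-cell genes the lectin receptor Klrd1 was higher (4.67 ± 0.64, adjusted p = 0.00892), with sums of 12.6 to 23.9 in Bach2-vector and 0.572 to 15.6 in control-vector MPPs, while Ncr1, which defines NK cells, was above background in neither group. The other 8 lists held 0 genes that passed.

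In B220+ cells against control-vector MPPs the sums were 28.5 to 36.2 against 7.61 to 14.0 for conventional dendritic-cell genes (2 of 8 higher, 1 lower), 26.5 to 53.9 against 0.572 to 15.6 for NK-cell genes (1 of 5 higher), and 20.3 to 134 against 8.43 to 23.8 for mast-cell and basophil genes (0 of 5 passed). Monocyte and granulocyte sums were 73.2 to 102 and 322 to 351 in B220+ cells (0 of 9 monocyte genes passed; of 9 granulocyte genes 1 was higher and 2 lower).

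In follicular B cells 0 of 6 monocyte and 0 of 7 granulocyte genes passed (medians 0.94 and 2.85, all genes -0.16), and the differences of 4 and 6 were above 0. The monocyte sums were 66.4 to 103 in Bach2KO and 72.4 to 117 in WT cells, and the granulocyte sums 127 to 288 and 66.6 to 206. Genes not above background in either group included Fcgr1, Ccr2 and Mertk, while Cx3cr1, Mpo and Prtn3 were above background only on Bach2KO arrays. The multipotent progenitor list summed to 43.1 to 52.8 in Bach2KO and 5.92 to 7.58 in WT cells, where of 3 genes tested Ly6a (Sca-1) was higher (3.17 ± 0.29, adjusted p = 8.26e-04) and Flt3 lower (-1.68 ± 0.31, adjusted p = 0.0224). The erythroid list summed to 4.18 or more on each Bach2KO array and to 1.61 or less on each WT array, where of 3 genes tested the globin gene Hba-a1 was higher (3.74 ± 0.77, adjusted p = 0.0394), and Klf1, an erythroid transcription factor, was above background in neither group. Of 6 plasmacytoid dendritic-cell genes the chemokine receptor Ccr9 was higher (3.88 ± 0.34, adjusted p = 7.55e-04), and of 5 conventional dendritic-cell genes Ccr7 was lower (-1.64 ± 0.35, adjusted p = 0.0484). Of 8 follicular B-cell genes the complement receptor Cr2 fell in Bach2KO cells (-2.06 ± 0.31, adjusted p = 0.00878), with sums of 422 to 695 in Bach2KO and 480 to 862 in WT cells. In CLPs 0 genes of the 12 lists passed. The part of other cell types in the differences of the 10 genes was not tested.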

How the data were processed

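RNA of 21 samples was hybridised to single-colour Agilent mouse arrays. The authors deposited scanner files whose spot intensity (the processed signal) is background-subtracted and not scaled between arrays, made with Agilent Feature Extraction 10.7.3.1 per the file headers (9.1 per the submitters' processing notes), together with other marks of 0 or 1 per spot, such as well above background, per the file headers. The deposited series table held the same intensity values.

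From these, log2 values were computed here as the processed signal over the 75th percentile of non-control spots on the same array. Control spots and spots marked as outliers were dropped, and replicate spots averaged. Of 55681 probes, 26413 received a symbol, 20018 in all, through their RefSeq accession (GRCm38.p6 gene table), and a gene was represented by its brightest probe by mean log2 value. Testing required a signal well above background on 3 or more arrays of an experiment, and 2 or more values in each group. Differences were fitted with limma 3.58.1 (lmFit and eBayes, R 4.3.3) in each of the 3 experiments, with Benjamini-Hochberg adjustment over all genes tested, and the procedure was tested on simulated data. A probe not well above background in a whole group gave only a bound, taken as at least N-fold against the array's lowest signal among probes well above background. The number of arrays limits the precision.

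Same-numbered arrays deviated from their group means together in CLPs (r = 0.434, 0.390 and 0.216 over 16322 genes). They did so between vectors (0.649, 0.411 and 0.299 over 16908) and in follicular B cells (0.859, 0.715 and 0.534 over 13005). Differently numbered arrays of the same slide also did, between vectors (0.312 and 0.223) and in follicular B cells (0.499 and 0.23). A pairing by number is therefore not fully separate from the slide. In CLPs the number is also the slide, and in the vector and follicular B-cell comparisons number 1 was on slide 1 and numbers 2 and 3 on slide 2. For B220+ cells (all on slide 1) the same-number r was 0.125, -0.0348 and -0.0594 with control-vector MPPs. With Bach2-vector MPPs it was 0.0833, 0.125 and 0.104, small but above the r of other numbers (-0.123 to 0.011).

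The 10 genes and the pathway and marker lists were chosen with earlier results of these data known. All 10 genes are named, Bach1 and Bach2 as a check, list genes that passed or had the smallest p, and the genes with the highest Pearson r with a member. Genes marking other cells are named where their lists are given. A few genes that this rule covers are not reported here. The alternatives were quantile normalization, normexp background correction (offset 50), no filter or a stricter one, the mean of all probes, eBayes with a trend, 1 fit over 21 arrays, the series table, the replicate number or slide as a block, and leaving out each replicate.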

Additional observations from a re-analysis of the deposited data

How the results depend on the processing

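Of the 10 genes, the number that passed between vectors was 1, and 2 in 1 fit over 21 arrays, 2 with the replicate block and 3 with the slide as a block. In Bach2KO follicular B cells it was 2, and 1 in the fit over 21 arrays. It was 5 there with the replicate block (2976 of all genes, in place of 354) and 4 with the slide as a block (1195 of all genes). In B220+ cells it was 2 against control-vector MPPs and 1 against Bach2-vector MPPs, and 1 and 0 with the mean of all probes. Without 1 replicate it was 1 to 2 between vectors, 0 to 4 in B220+ cells against control-vector MPPs and 0 to 3 against Bach2-vector MPPs, 2 in follicular B cells and 0 in CLPs, where it was 0 in all alternatives run. Nod1 passed in all 16 alternatives between vectors (-2.92 to -2.29) and in follicular B cells (-3.57 to -2.02). Of the differences that passed in the report or in the alternative, 1 changed sign, that of Tlr7 in B220+ cells against Bach2-vector MPPs by its dimmer probe (0.30, adjusted p = 0.637). A further 29 of 709 alternative values changed sign for differences that passed in neither, 14 of them in CLPs. The cause of these changes was not tested.

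Over all genes, 354 passed in follicular B cells, 105 with normexp on the median signal, 2976 with the replicate block, 1195 with the slide as a block and 110 to 371 without 1 replicate. Between vectors 305 passed, and 96 to 198 without 1 replicate. In B220+ cells 2056 passed against control-vector and 1048 against Bach2-vector MPPs, and 1028 to 2638 and 448 to 1699 without 1 replicate. In CLPs 1 passed, 8 in the fit over 21 arrays, 0 with quantile normalization, the replicate block or the slide as a block, and 0 to 27 without 1 replicate. The median of all genes in B220+ cells was -0.29 against control-vector MPPs (-0.08 with quantile normalization, -0.12 with normexp) and -0.25 against Bach2-vector MPPs (-0.07 and -0.10). The group with the highest mean was the same for all 10 genes with normexp and with the series table, for 9 with another probe and for 8 with quantile normalization. Normexp on the mean signal was not run, since only the median spot signal was analysed here; normexp on the median signal and the dimmer Tlr7 probe were added after seeing the data. Signal over background limits Tlr3 and, in follicular B cells, Nod2.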
